A study of Bos taurus with 6 samples.

Results

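OGT (ENSBTAG00000000902), the gene of O-GlcNAc transferase, was followed in RNA-seq libraries of bovine mammary epithelial cells. It was 1 of the 29154 genes counted, and it was picked for its difference between the groups compared here, so its level and its change are a description and carry no p-value. The cells were of the MAC-T line, an established line of bovine mammary alveolar cells grown in DMEM/F12 medium with fetal bovine serum. Transient transfection brought in either the miR-375 inhibitor or its negative control, the inhibitor NC, at 100 nM each. The cells were collected for RNA after 48 h. Each group held 3 libraries of messenger RNA, and the comparison asked which transcripts differed once miR-375 was blocked. All 6 libraries came from this 1 cell line, and the level of miR-375 itself was not analysed here. The labels number the replicates but do not say that they were separate cultures, so the p-values given for other genes measure only the spread between these samples, which may be technical.

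O-GlcNAc transferase attaches N-acetylglucosamine to serine and threonine residues of nuclear and cytoplasmic proteins, and O-GlcNAcase, the product of OGA, removes it. The sugar donor, UDP-GlcNAc, is the end product of the hexosamine pathway, which draws on glucose and glutamine, and O-GlcNAc is therefore often described as a nutrient-responsive mark. OGT is an X-linked gene, its protein also cleaves the transcriptional regulator HCFC1, and its transcripts are known to occur in spliced and intron-retaining forms, which counts per gene do not separate.

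The libraries held 14479278, 16213226 and 16047812 counts in inhibitor NC replicates 1, 2 and 3, and 15228121, 14903099 and 16324556 counts in miR-375 inhibitor replicates 1, 2 and 3. The ranges of the groups overlapped, so depth did not separate them. Of the 11 epithelial marker genes listed, 3 could be matched to an identifier, and the keratins, EPCAM and CDH1 were not among them. The tight-junction gene CLDN1 had counts of 200, 182 and 160 under inhibitor NC and of 129, 114 and 126 under the miR-375 inhibitor. The other 2, TP63 and LIPH, stayed at or below 30 counts in every library, and none of the 6 milk protein genes was matched, so the epithelial label could be checked only in small part.

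Markers of other cell types were low or shared with many tissues. Of the 14 leukocyte markers, 13 were matched, and CD86 and CD40LG had 0 counts in all 6 libraries. CD96 had counts of 10, 11 and 8 under inhibitor NC and of 14, 11 and 13 under the miR-375 inhibitor. After normalization it was higher without overlap, the only 1 of the list, where 7% of all genes were. The summed normalized count of the 13 was 61.8, 69.6 and 83.5 under inhibitor NC and 80.3, 92.5 and 95.6 under the miR-375 inhibitor, most of it from CD80, a costimulatory ligand with 41 to 77 counts. The endothelial factor ERG had 1 count in 1 library, whereas JAM2, also on other epithelia, had 312 to 367 counts. Of the 5 fibroblast genes matched, LUM and BGN had at most 11 counts, whereas FSTL1, COL6A1 and COL6A2 had 1751 to 13993. Among the 6 neuronal genes, GAP43 and SLITRK2 had at most 1 count and L1CAM had 9271 to 10568. ADIPOQ, the adipocyte marker, had 0 counts, and the erythroid and mast cell genes GATA1, ALAS2 and CPA3 had at most 6. edgeR's quasi-likelihood test called 0 of the 11 leukocyte and 0 of the 5 fibroblast genes tested, where 1.69% of all genes were called. At an unadjusted p under 0.05 there were 0 leukocyte genes and 2 fibroblast genes, LUM and COL6A1, where 10.6% of all genes reached it. DESeq2 called 0 on either list. Symbols came in part from the study's own list of genes that differed in this contrast. Strongly changed genes were thus more likely to be matched, and nothing is read from these shares. LUM was lower with the inhibitor on few counts, whereas COL6A1, at a log2 fold change of 0.11, and COL6A2, at 0.09, were higher without overlap. The summed normalized count of the 5 fibroblast genes was 24055, 23990 and 23810 under inhibitor NC and 24536, 25344 and 24886 under the miR-375 inhibitor, and whether this had a part in the difference of OGT was not tested. None of the endothelial, neuronal, or erythroid and mast cell genes was called by edgeR or DESeq2, with 0 at an unadjusted p under 0.05.

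OGT was read deeply in every library. Its count was 3571 in inhibitor NC replicate 1, 3873 in replicate 2 and 3165 in replicate 3. In the miR-375 inhibitor group it was 2433 in replicate 1, 2729 in replicate 2 and 2420 in replicate 3. Every inhibitor NC library thus held more OGT counts than any miR-375 inhibitor library. The 95% Poisson intervals, which cover counting error only, ran from 3056 to 3277 for the lowest inhibitor NC library and from 2628 to 2833 for the highest miR-375 inhibitor library.

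After scaling to library size by edgeR's TMM method, the normalized count of OGT was 3803, 3690 and 3037 in inhibitor NC replicates 1, 2 and 3. In miR-375 inhibitor replicates 1, 2 and 3 it was 2505, 2867 and 2313. The groups did not overlap, with a mean of 3510 ± 413 (SD, n = 3) against 2562 ± 281 (SD, n = 3). Of the 20755 genes with a count in any library, 7.09% were likewise lower in all miR-375 inhibitor libraries than in any inhibitor NC library, and since OGT was picked from this contrast nothing is read from its place among them. As CPM, counts scaled to the library total, the same libraries stood at 247, 239 and 197 for inhibitor NC and at 160, 183 and 148 for miR-375 inhibitor.

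The fitted log2 fold change of OGT was -0.45 with a standard error of 0.064, a ratio of 0.730 between the groups, or 27.0% fewer normalized counts with the inhibitor. That standard error borrows spread from all genes. From the 6 values of OGT alone, the difference of the mean log2 values was -0.45 with a standard error of 0.14. Fewer cells rich in OGT transcript and less OGT transcript per cell cannot be told apart in such bulk samples.

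**Figure D1:**
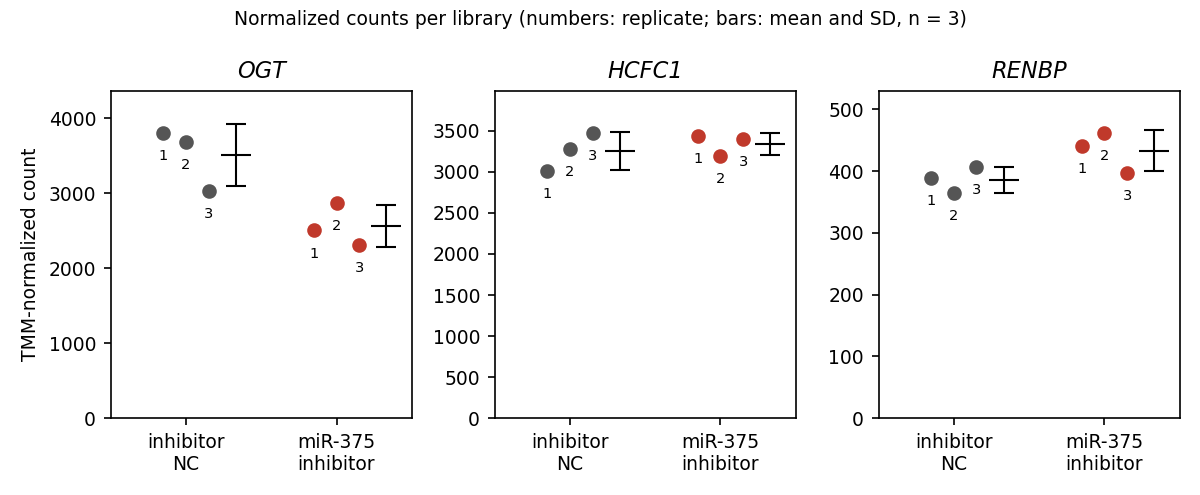
TMM-normalized counts (vertical axes, from 0) of OGT, HCFC1 and RENBP in each library, with the replicate number under each point and the mean and SD (n = 3) as a bar beside each group. The OGT values of the miR-375 inhibitor libraries, 2313 to 2867, all lie under those of the inhibitor NC libraries, 3037 to 3803, whereas the groups overlap for HCFC1 and RENBP.

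The coefficient of variation of OGT was 11.8% in the inhibitor NC group and 11.0% in the miR-375 inhibitor group, against 1.81% from counting at its mean. Replicate 3 was the lowest of both groups, while the highest was replicate 1 in the inhibitor NC group and replicate 2 in the miR-375 inhibitor group. The space between the lowest inhibitor NC library and the highest miR-375 inhibitor library was 170.3 normalized counts, less than the SD of either group. Over the 9 possible pairs of a miR-375 inhibitor with an inhibitor NC library, the ratio ran from 0.608 to 0.944.

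The libraries also differed in the sequencing quality listed by the study. The 3 libraries with the lowest share of high-quality bases were replicates 1 and 2 of inhibitor NC together with replicate 2 of the miR-375 inhibitor, and each had a higher OGT level than the other libraries of its group. Among those 3 libraries the OGT mean was 3747 in the inhibitor NC libraries and 2867 in the miR-375 inhibitor library, a log2 ratio of -0.39. Among the other 3 it was 3037 in the inhibitor NC library and 2409 in the miR-375 inhibitor libraries, a log2 ratio of -0.33. With the division as a covariate, its log2 fold change was -0.36 with a standard error of 0.045. The division was chosen after seeing the data and left a single library of one group on each side, so whether sequencing quality had a part in the spread or in the difference was not tested. Over all well-counted genes, inhibitor NC replicate 3 was nearer to miR-375 inhibitor replicates 3 and 1, at a chi-square per degree of freedom of 3.72 and 4.55, than to inhibitor NC replicates 2 and 1, at 4.75 and 7.36. The libraries thus also differed along a direction other than the groups, and its part in the values of OGT was not tested.

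By normalized count, OGT ranked 673, 707 and 916 among the genes of inhibitor NC replicates 1, 2 and 3. In miR-375 inhibitor replicates 1, 2 and 3 it ranked 1174, 983 and 1309. Between 18017 and 18341 genes had a count in each library, so OGT was among the more heavily counted genes throughout. This order is one of counts, as gene length was not used and levels per length were not compared between genes.

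OGT was then set against the 1005 other genes whose mean normalized count lay within 1.5 times its own, from 2028 to 4540. Their log2 fold changes had a median of 0.02, quartiles of -0.05 and 0.07, and a range of -0.74 to 0.47. The log2 fold change of OGT lay outside the span of -0.24 to 0.18 that held the central 95% of them. A lower value than that of OGT was found for 9 of the 1005 genes, or 0.896%, and 1 gene was as far in the other direction. OGT thus stood near the lower end of genes counted about as often.

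None of the 9 genes had a symbol in the tables used, and the groups of 8 of them overlapped. The exception, named after its values were seen, was ENSBTAG00000002078, with counts of 3055, 2776 and 2149 under inhibitor NC and of 1655, 1905 and 1580 under the miR-375 inhibitor. Its log2 fold change was -0.61 with a standard error of 0.082. The gene on the opposite side, ENSBTAG00000025441, likewise named after its values were seen, had counts of 1984, 2163 and 2504 versus 2881, 2496 and 3688, giving a log2 fold change of 0.47.

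OGT was also more variable than most genes counted about as often. The SD of its log2 values within groups was 0.17, against a median of 0.06 for the 1005 genes, and 39 of them, or 3.88%, had a larger one. Of the 1005 genes, 96, or 9.55%, were lower in every miR-375 inhibitor library than in any inhibitor NC library, and 161, or 16.0%, were higher. A gap between the groups as such was therefore common at this depth.

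**Figure D2:**
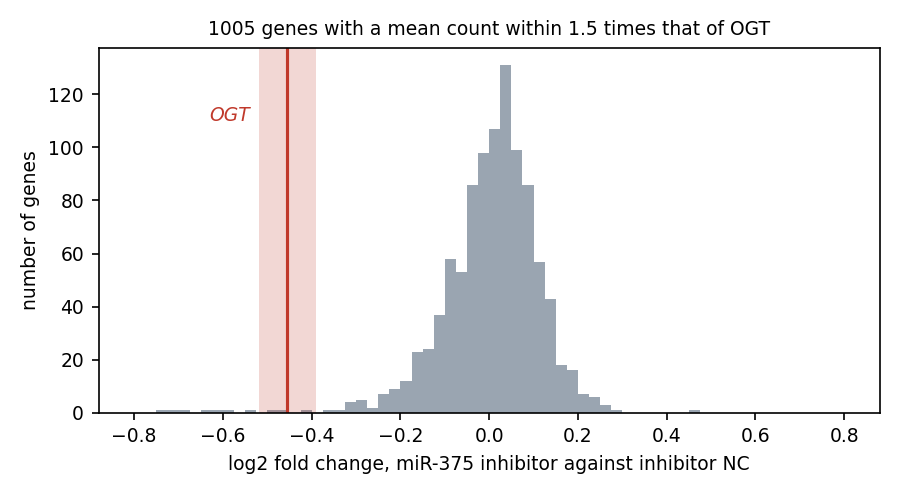
Number of genes (vertical axis) by log2 fold change of miR-375 inhibitor against inhibitor NC (horizontal axis) for the 1005 genes with a mean count within 1.5 times that of OGT. The line marks OGT at -0.45 and the band its standard error of 0.064, and 9 of the genes lie to the left of the line.

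Of the 1005 genes, 50 had a symbol, and those nearest to OGT in log2 fold change still lay well above it. ALCAM, a cell adhesion molecule, had counts of 3110, 3250 and 3628 under inhibitor NC and of 2862, 2545 and 3423 under the miR-375 inhibitor, a log2 fold change of -0.15. CD47, a membrane protein that restrains phagocytosis, had counts of 3100, 3493 and 3476 versus 2819, 2911 and 3252, giving a log2 fold change of -0.14. The other 3 were ZBTB38 at -0.14, TBL1XR1 at -0.13 and ATP13A3 at -0.13. The groups overlapped for ALCAM, TBL1XR1 and ATP13A3 but not for CD47 and ZBTB38.

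The 5 named genes nearest to OGT in mean count were the RNA-binding protein gene KHDRBS1, the translocon gene SEC62, ZBTB38, the splicing factor gene TRA2B and ALCAM. KHDRBS1 had counts of 2874, 3334 and 3153 versus 2957, 2875 and 3036, giving a log2 fold change of -0.05. SEC62 had counts of 2788, 2965 and 3041 versus 3007, 3076 and 3248, giving a log2 fold change of 0.11. At nearly the same counts as OGT, neither came near its difference between the groups.

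Few other genes of the O-GlcNAc pathway could be followed, because only 1126 identifiers had a usable symbol. Of the 13 other genes of O-GlcNAc cycling and UDP-GlcNAc synthesis, among them OGA, GFPT1, GFPT2 and UAP1, 1 was matched. This was RENBP, which encodes an N-acetylglucosamine epimerase that interconverts GlcNAc and N-acetylmannosamine. RENBP had counts of 365, 382 and 423 under inhibitor NC and of 428, 439 and 415 under the miR-375 inhibitor, and the groups overlapped after normalization. Its log2 fold change was 0.16 with a standard error of 0.090 and did not pass edgeR's quasi-likelihood test (Benjamini-Hochberg adjusted p = 0.545). Across all 20755 genes, 1.69% passed this test at an adjusted p under 0.05, 1.2% lower and 0.487% higher with the inhibitor. DESeq2 called 0.708% of the 9890 genes to which it gave an adjusted p, a smaller set than the 20755. edgeR thus called 0 of the genes matched on this list, with 0 at an unadjusted p under 0.05 and 0 called by DESeq2.

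Of 21 genes of proteins that bind OGT, 1 was matched, HCFC1, whose product OGT cleaves. HCFC1 had counts of 2825, 3438 and 3617 under inhibitor NC and of 3338, 3038 and 3561 under the miR-375 inhibitor. The groups overlapped, with normalized means of 3252 ± 232 and 3344 ± 133 (SD, n = 3 each). The log2 fold change was 0.04 with a standard error of 0.055 (edgeR's quasi-likelihood test, Benjamini-Hochberg adjusted p = 0.813). Its sign was negative without inhibitor NC replicate 1, at -0.01. HCFC1 was counted about as deeply as OGT, and edgeR called 0 of the partners matched, with 0 at an unadjusted p under 0.05 and 0 called by DESeq2.

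Of 27 other enzymes that use UDP-GlcNAc, 4 were matched. B3GNT5, which extends lactosylceramide with GlcNAc, had counts of 190, 233 and 246 under inhibitor NC and of 188, 173 and 252 under the miR-375 inhibitor, a log2 fold change of -0.10. PIGP, a subunit of the enzyme that starts the GPI anchor, had counts of 254, 271 and 287 versus 274, 284 and 238, giving a log2 fold change of 0.0044. A4GNT, the mucin-capping enzyme, had 0 counts in all 6 libraries, which allows at most 3 counts each.

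ALG13, part of the enzyme that adds GlcNAc in the early steps of N-glycan assembly, had counts of 26, 26 and 23 under inhibitor NC and of 11, 18 and 15 under the miR-375 inhibitor. The groups did not overlap, but the counts were low and another ALG13-like identifier exists, so its level is uncertain. The log2 fold change was -0.74 with a standard error of 0.33 and did not pass edgeR's quasi-likelihood test (Benjamini-Hochberg adjusted p = 0.382). Of the 3 enzymes tested, edgeR called 0, with 1 at an unadjusted p under 0.05 (10.6% over all genes) and 0 called by DESeq2.

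Splicing regulators were listed because OGT transcripts occur with and without a retained intron. Of 42 genes, 17 were matched and tested, and their log2 fold changes had a median of -0.05, against a median of -0.0019 for all genes tested. edgeR called 0 of the 17, with 2 at an unadjusted p under 0.05, a share near the 10.6% of all genes, and 0 called by DESeq2. These were RSRC1, with counts of 490, 578 and 650 under inhibitor NC and of 642, 608 and 645 under the miR-375 inhibitor, and MBNL1, with 4442, 5449 and 5626 against 4667, 4299 and 5148. By edgeR's quasi-likelihood test, the Benjamini-Hochberg adjusted p was 0.402 for RSRC1, at a log2 fold change of 0.17, and 0.459 for MBNL1, at -0.11. With the sequencing-quality division as a covariate in edgeR, MBNL1 had a Benjamini-Hochberg adjusted p of 0.0158, within a range of 0.0158 to 0.793 over the alternatives. In that setting 856 of all 20755 genes and 1 of the 17 were called.

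The 15 splicing regulators with a mean of at least 100 normalized counts ranged from -0.15 to 0.17 in log2 fold change. OGT, at -0.45, lay below all of these. The paraspeckle protein gene NONO, also a neighbour of OGT on the X chromosome, had counts of 6710, 7588 and 7476 versus 6552, 6580 and 7207, giving a log2 fold change of -0.07.

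The genes beside OGT on the X chromosome were followed next, taking names and order from the RefSeq annotation of ARS-UCD2.0. The protein-coding genes directly beside it, GCNA and TAF1, were not matched to an identifier. A RefSeq pseudogene, LOC100139523, overlaps OGT in that annotation. As the strand setting of the counting was not stated, reads from the overlap cannot be told apart. Of the 20 nearest matched genes, 10 on each side, 18 had counts.

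NLGN3, which encodes a synaptic adhesion protein, had counts of 125, 132 and 114 under inhibitor NC and of 93, 70 and 98 under the miR-375 inhibitor. Its log2 fold change was -0.48 with a standard error of 0.15 and did not pass edgeR's quasi-likelihood test (Benjamini-Hochberg adjusted p = 0.117, and 0.0226 to 0.590 over the alternatives). It passed in edgeR without inhibitor NC replicate 3, at a Benjamini-Hochberg adjusted p of 0.0272, and with the quality division as a covariate, at 0.0380. With a block by replicate number it passed as well (edgeR, Benjamini-Hochberg adjusted p = 0.0226). Those settings called 756 of 20495, 856 of 20755 and 840 of 20755 genes. MED12, a Mediator subunit gene, had counts of 1000, 1083 and 1125 versus 936, 912 and 1045, giving a log2 fold change of -0.12. RPS4X, a ribosomal protein gene, had counts of 9127, 9935 and 9778 versus 9395, 9384 and 9658, giving a log2 fold change of 0.0097.

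The median log2 fold change of the 18 neighbours was 0.0075, against -0.0019 for all genes tested, and the 12 with a mean of at least 100 normalized counts ranged from -0.48 to 0.22. Groups did not overlap for 4, with NONO, NLGN3 and MED12 lower and PHKA1 higher with the inhibitor, where 7.09% of all genes were lower in this sense and 7% were higher. edgeR called 0 of the 18, with 1 at an unadjusted p under 0.05 (10.6% over all genes), NLGN3, and 0 called by DESeq2.

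**Figure D3:**
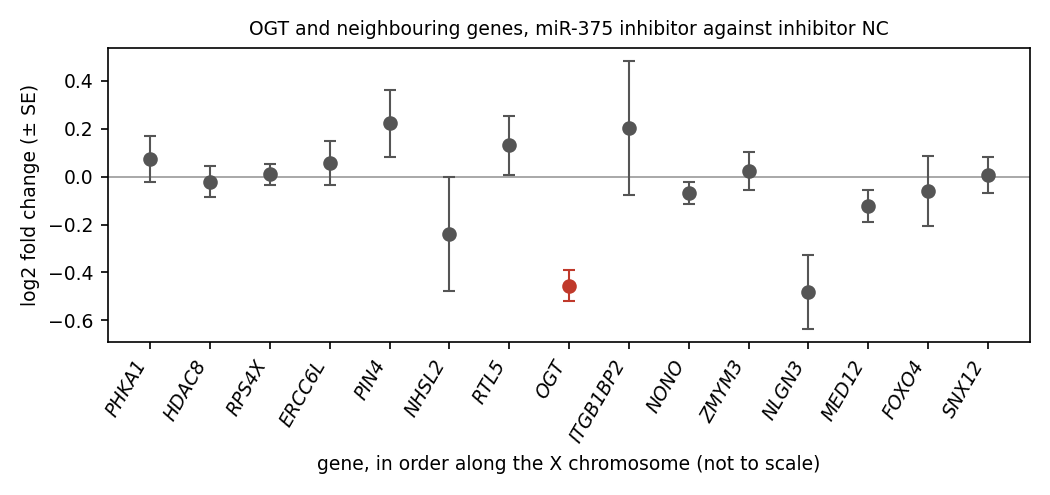
Log2 fold change of miR-375 inhibitor against inhibitor NC (vertical axis, bars give the standard error) for OGT and the 14 matched neighbours with a mean of at least 10 normalized counts, in their order along the X chromosome and not to scale. OGT at -0.45 and NLGN3 at -0.48 lie below the others.

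Among all 206 other X-linked genes with a symbol and a mean of at least 100 normalized counts, the median log2 fold change was 0.01, with quartiles of -0.08 and 0.09. The only one with a lower log2 fold change than OGT was NLGN3. OGT therefore also lay at the lower end of the X-linked genes that could be named.

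Finally, the pattern of OGT over the 6 libraries was compared with that of 10462 genes with a mean of at least 100 normalized counts, 589 of them with a symbol. Pearson's r on log2(normalized count + 1) described the likeness, and it reflects both the difference between the groups and the libraries that all genes share. An r above 0.9 was found for 432 genes, or 4.13%, and an r below -0.9 for 344, or 3.29%. A pattern like that of OGT was thus not rare among well-counted genes.

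The named gene most like OGT was IQCB1, a gene of the primary cilium, with r = 0.984 and 15 genes above it. It had counts of 168, 181 and 155 under inhibitor NC and of 122, 142 and 132 under the miR-375 inhibitor. HLCS, which attaches biotin to carboxylases, followed with r = 0.983, at counts of 232, 222 and 158 versus 112, 152 and 113. For both genes the groups overlapped after normalization, unlike those of OGT.

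ALDH1L2, a mitochondrial enzyme of folate metabolism, had r = 0.967, at counts of 1451, 1179 and 583 under inhibitor NC and of 411, 682 and 323 under the miR-375 inhibitor. The inflammatory cytokine gene IL6 had r = 0.962, at counts of 336, 273 and 134 versus 109, 141 and 82. Their differences between libraries were much wider than those of OGT, with log2 fold changes of -1.16 and -1.14, but the libraries stood in a similar order. The remaining 6 were SPICE1, CHAF1B, SLC7A11, B4GALT4, TNIK and GRIPAP1, down to r = 0.918.

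In all 10 genes inhibitor NC replicate 1 was the highest of the 6 libraries, inhibitor NC replicate 3 the lowest of its group and miR-375 inhibitor replicate 2 the highest of its group, as in OGT. Spearman's rho for these genes ran from 0.886 to 0.943. With the group means removed, r still ran from 0.767 to 0.989, and since the genes were picked for their likeness over these same libraries, nothing is read from it. The log2 fold changes of all 10 were below 0, which follows from the choice by likeness. Groups did not overlap in 2, SLC7A11, the cystine transporter gene, and TNIK, a kinase gene, where 7.09% of all genes were lower without overlap.

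Of the pathway genes above, HCFC1 had r = -0.671 and RENBP r = -0.546, so neither shared the pattern of OGT.

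**Figure D4:**
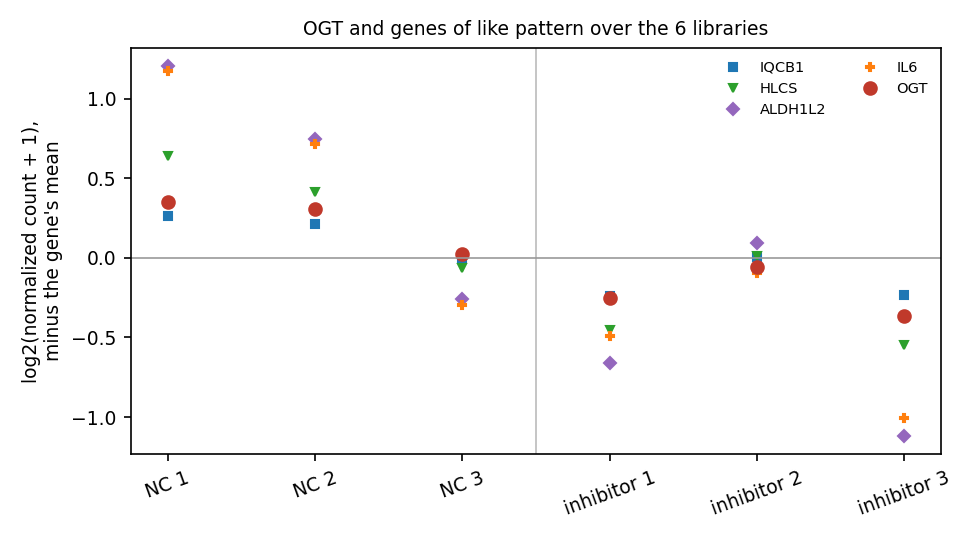
Log2(normalized count + 1) minus the gene's own mean (vertical axis) in each library for OGT, for IQCB1, HLCS, ALDH1L2 and IL6, among the named genes most like it. Inhibitor NC replicate 3 is the lowest of its group and miR-375 inhibitor replicate 2 the highest of its group for OGT and for each of these 4 genes.

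All 3 matched epithelial markers had a lower mean with the inhibitor, TP63 at a log2 fold change of -0.70 and LIPH with overlap at -0.19. TP63 had counts of 10, 14 and 16 under inhibitor NC and of 4, 10 and 10 under the miR-375 inhibitor. Its groups shared a raw count and were apart only after normalization (edgeR's quasi-likelihood test, Benjamini-Hochberg adjusted p = 0.648). edgeR called 1 of the 3, CLDN1, which was also the only 1 at an unadjusted p under 0.05, where 1.2% of all genes were called lower, 10.6% had an unadjusted p under 0.05 and 7.09% were lower without overlap. CLDN1, the most counted of them, had r = 0.889 with OGT. It fell with the inhibitor in the main comparison, with a log2 fold change of -0.53 and a standard error of 0.13 (edgeR's quasi-likelihood test, Benjamini-Hochberg adjusted p = 0.0219). The groups of CLDN1 did not overlap. The call was lost in 7 of 14 alternatives, among them DESeq2 (Benjamini-Hochberg adjusted p = 0.137). It was also lost by edgeR without inhibitor NC replicate 1 (Benjamini-Hochberg adjusted p = 0.491), within a range of 0.00067 to 0.491. The log2 fold change of CLDN1 was -0.53 with DESeq2 and -0.40 without inhibitor NC replicate 1. In the other settings that lost the call it ran from -0.58 to -0.50. Whether a difference in epithelial character had a part in that of OGT was not tested.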

How the data were processed

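For each of the 6 libraries the authors deposited raw counts per gene, made by mapping with HISAT2 to a bovine genome named as UMD3.1 and counting with featureCounts, per the submitters' processing notes. Versions and strand setting were not given in the sources used here. Positions were not used from it.

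Genes counted at least once in some library, 20755 in all, went into edgeR 4.0.16 (R 4.3.3, TMM scaling, quasi-likelihood test without a block), with Benjamini-Hochberg adjustment over all of them. A normalized count is the count divided by the relative effective library size. DESeq2 1.42.0, other scalings and filters, a robust dispersion fit, a block by replicate number and leaving out each library were alternatives. The sequencing-quality division was added after seeing the data. Both tools were tested on simulated data in which all genes had the same dispersion. There edgeR recovered 188 of 200 changed genes with 6 false calls, and DESeq2 recovered 176 with 7. Such data do not show how the tools treat genes as variable as OGT. Intervals, ranks and correlations were computed in Python 3.11.15 with scipy 1.17.1.

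Symbols came from the study's table of expression levels, of which 1997 rows were at hand, and from its list of differentially expressed genes. That list was made from the contrast studied here, so strongly changed genes were more likely to have a symbol. Genes named were OGT, matched members of the pathway, partner, glycosyltransferase, splicing and marker lists, the 10 nearest matched X-linked genes on each side, the 10 named genes most like OGT, and the 5 nearest in fold change and in mean count. The members and lists were chosen with earlier results of these data known. No pair of libraries was a copy: chi-square divided by its degrees of freedom ran from 3.01 to 11.2.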

Additional observations from a re-analysis of the deposited data

How the results depend on the processing

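The log2 fold change of OGT kept its sign and moved by less than the spread between replicates under all 14 alternatives, from -0.55 to -0.36, and from -0.55 to -0.38 with each library left out. Its standard error ran from 0.045 to 0.118. The number of genes of similar mean count with a lower log2 fold change was 3 of 428 within 1.2 times the mean of OGT, 12 of 1805 within 2 times, and 5 to 10 with each library left out, where 5 was the value without inhibitor NC replicate 1.

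The number of genes with an adjusted p under 0.05 depended on the setting. It was 350 with edgeR, 70 with DESeq2, 856 with the quality division as a covariate (chosen after seeing the data), and 0 to 756 with each library left out, 0 without inhibitor NC replicate 1 and 756 without inhibitor NC replicate 3. It was 0 when edgeR kept only genes reaching 10 counts in total and 0 with filterByExpr. At an unadjusted p under 0.05, edgeR gave 1972 and 1844 genes in these, and 1543 without inhibitor NC replicate 1, against 1169 by DESeq2. The calls of the main comparison, for CLDN1 and other genes named, were thus lost with a stricter filter on low counts, and the cause was not tested. Calls made only in other settings were not run with such a filter.

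The replicate numbers did not pair the libraries: deviations of same-numbered libraries correlated at -0.108, 0.246 and 0.498, and inhibitor NC replicate 1 correlated best with miR-375 inhibitor replicate 2, at 0.388. With the replicate block, 840 genes were called, 1 X-chromosome neighbour among them (NLGN3), and OGT had a log2 fold change of -0.45. Of the neighbours, 1 was called with the quality division and 0 to 1 with each library left out, and of the splicing regulators 1 with the quality division (MBNL1), beside the counts over all genes given above. The sign of HCFC1 was reversed without inhibitor NC replicate 1 (edgeR, Benjamini-Hochberg adjusted p = 0.963) and with the quality division (0.999), within 0.566 to 0.999 over the alternatives. Of the 10 named genes most like OGT, 3 were among the 10 highest by Spearman's rho, 4 with group means removed and 6 with a higher floor on the mean count.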

Other observations

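Of the 206 other X-linked genes with a symbol and a mean of at least 100 normalized counts, edgeR called 3, or 1.46%. All 3 fell with the inhibitor and 0 rose, by its quasi-likelihood test at a Benjamini-Hochberg adjusted p under 0.05. At an unadjusted p under 0.05 there were 32, and DESeq2 called 1. Of all genes tested, 1.69% were called and 10.6% had an unadjusted p under 0.05. Those shares include genes with as little as 1 count, so they are not a matched background for the 206. Among the genes with a mean count within 1.5 times that of OGT, edgeR called 5.27%. That set differs in depth from the 206 as well, and nothing is read from these shares. ATP7A, a copper transporter gene, had counts of 905, 982 and 1120 under inhibitor NC and of 718, 617 and 931 under the miR-375 inhibitor, a log2 fold change of -0.38 (edgeR, Benjamini-Hochberg adjusted p = 0.0026). ACSL4, which activates long-chain polyunsaturated fatty acids, had counts of 5793, 7189 and 7145 versus 5594, 5127 and 6443, giving a log2 fold change of -0.20 (edgeR, Benjamini-Hochberg adjusted p = 0.0238). LONRF3 had counts of 229, 241 and 248 versus 158, 149 and 211, giving a log2 fold change of -0.45 (edgeR, Benjamini-Hochberg adjusted p = 0.0307). The groups did not overlap for any of the 3 after normalization, and these calls were lost with a filter of at least 10 counts in total, under which edgeR called 0 genes.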
